A study of Mus musculus with 2 samples.

Results

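The 8 genes of plasminogen activation and blood coagulation examined here, Plau, Plat, Plaur, Serpine2, F3, F7, F10 and F13a1, were followed across the mononuclear cells of dystrophic hind limb muscle. They were chosen by symbol, as 8 of the 24984 genes in each library, and all 8 were present in both libraries. Live cells from 3 pooled mice per group were profiled by droplet single cell RNA-seq in 1 Ctrl and 1 dKO library. The Ctrl mice were Pax7CreERT2/R26YFP; Yy1+/+; mdx and the dKO mice Pax7CreERT2/R26YFP; Yy1 f/f; mdx. Both groups therefore carried the mdx mutation, which removes dystrophin and models Duchenne muscular dystrophy, and a tamoxifen-inducible Cre driven by Pax7, the gene that marks muscle stem cells (MuSCs). Tamoxifen was given to both at 1.5 months of age and muscle was taken 1 month later. The deletion of Yy1, which encodes the transcription factor YY1, is thus aimed at MuSCs and not at the cells in which most of the 8 genes were found.

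Plasminogen is cleaved to the protease plasmin by 2 activators, urokinase (Plau) and tissue plasminogen activator (Plat). The urokinase receptor (Plaur) holds urokinase at the cell surface, and protease nexin 1 (Serpine2) is a serpin that blocks urokinase, tissue plasminogen activator and thrombin. Plasmin dissolves fibrin and opens the way through matrix, and fibrin clearance bears on the repair of injured muscle. Coagulation starts when tissue factor (F3), a membrane protein of cells around vessels, binds factor VII (F7) from plasma. That complex activates factor X (F10), which makes thrombin from prothrombin, and factor XIII A (F13a1) is the transglutaminase that cross-links the fibrin. Circulating factor VII and factor X come mainly from liver, whereas factor XIII A is a product of megakaryocytes, monocytes and macrophages.

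The 8 genes lie on 6 chromosomes of GRCm38 (GENCODE M21): Serpine2 on chromosome 1, from 79794197 to 79861180, F3 on chromosome 3, from 121723537 to 121735048, Plaur on chromosome 7, from 24462484 to 24475968, Plat on chromosome 8, from 22757727 to 22782844, F13a1 on chromosome 13, from 36867178 to 37050244, and Plau on chromosome 14, from 20836660 to 20843385. F7, from 13026034 to 13035809, and F10, from 13037308 to 13056676, follow each other on the plus strand of chromosome 8 with 1498 bases between them. The 250 bases before the RefSeq start (GRCm38.p6) are printed for F3 and Plaur, in which a searched motif occurred, and for F7, F10 and F13a1, the coagulation genes found in macrophage-like cells. RefSeq promoters were matched for 6 of the 8 genes. Capitals mark matches, on either strand, to the AP-1 letters TGANTCA. They also mark matches to the letters TTGCNNAA of C/EBP and GAGGAAGT of PU.1, and those of the TATA box, TATAAA.
F3, chr3:121723287-121723536, plus strand: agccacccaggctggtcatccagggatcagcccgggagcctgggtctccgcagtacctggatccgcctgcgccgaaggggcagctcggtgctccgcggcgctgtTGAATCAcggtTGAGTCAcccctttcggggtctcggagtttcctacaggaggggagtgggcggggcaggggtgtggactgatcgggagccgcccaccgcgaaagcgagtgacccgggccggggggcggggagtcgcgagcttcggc
Plaur, chr7:24462233-24462482, plus strand: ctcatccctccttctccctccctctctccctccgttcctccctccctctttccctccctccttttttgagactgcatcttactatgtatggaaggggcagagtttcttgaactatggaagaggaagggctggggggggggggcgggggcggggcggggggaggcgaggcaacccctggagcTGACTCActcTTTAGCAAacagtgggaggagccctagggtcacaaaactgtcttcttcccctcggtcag
F7, chr8:13025784-13026033, plus strand: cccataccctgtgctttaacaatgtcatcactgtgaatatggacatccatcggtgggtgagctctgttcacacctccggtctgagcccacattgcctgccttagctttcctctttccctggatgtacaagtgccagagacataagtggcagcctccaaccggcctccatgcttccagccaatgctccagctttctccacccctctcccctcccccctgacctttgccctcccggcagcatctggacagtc
F10, chr8:13037058-13037307, plus strand: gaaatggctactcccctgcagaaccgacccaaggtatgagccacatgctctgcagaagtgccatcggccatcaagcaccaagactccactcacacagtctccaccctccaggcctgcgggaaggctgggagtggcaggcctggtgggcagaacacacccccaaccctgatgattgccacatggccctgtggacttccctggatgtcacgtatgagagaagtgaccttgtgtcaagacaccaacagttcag
F13a1, chr13:37050245-37050494, minus strand: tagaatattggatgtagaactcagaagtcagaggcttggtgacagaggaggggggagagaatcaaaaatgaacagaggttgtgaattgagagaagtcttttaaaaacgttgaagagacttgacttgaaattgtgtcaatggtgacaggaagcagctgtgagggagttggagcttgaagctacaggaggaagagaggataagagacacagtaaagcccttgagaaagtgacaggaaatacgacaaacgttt
F3 held 2 AP-1 matches, which begin 146 and 135 bases before its start. Plaur held 1 AP-1 match, which begins 69 bases before its start, and 1 C/EBP match on the opposite strand at 59 bases. None of the 4 motifs occurred in these windows of F7, F10, F13a1 and Serpine2. Among all 32851 promoter windows of this length, 6.75% held the AP-1 letters, 9.56% the C/EBP letters, 2.44% the PU.1 letters and 12.4% the TATA letters. No 2 of the matches overlapped. A match is a run of letters and was not tested as a binding site.

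After filtering, 4010 Ctrl cells with a median of 7880 UMIs (molecular tags that let each captured RNA be counted once) and 3079 dKO cells with a median of 7806 were kept. Clustering gave 23 clusters, named from fixed marker genes and written as "like". Fibro-adipogenic progenitor (FAP)-like cells numbered 1135 in Ctrl and 1187 in dKO, monocyte and macrophage (MO/MP)-like cells 1519 and 1165, endothelial (EC)-like cells 465 and 179, and MuSC-like cells 118 and 30. The FAP marker list summed to 40648 and 37338 CPM in FAP-like cells (CPM, the UMIs of a gene scaled to 1000000 UMIs of the same cells), the MO/MP list to 14768 and 15325 CPM in MO/MP-like cells, and the EC list to 9976 and 9279 CPM in EC-like cells. Yy1 had 369 UMIs in Ctrl and 3 in dKO MuSC-like cells, and its dKO to Ctrl ratio was 1.07 in FAP-like, 1.10 in MO/MP-like and 0.990 in EC-like cells. Each group has 1 library, so differences were not tested and have no replicates behind them. Levels are summed UMIs as CPM, intervals are exact 95% intervals that cover counting error only, and several UMIs of a gene can come from the same cell.

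**Figure D1:**
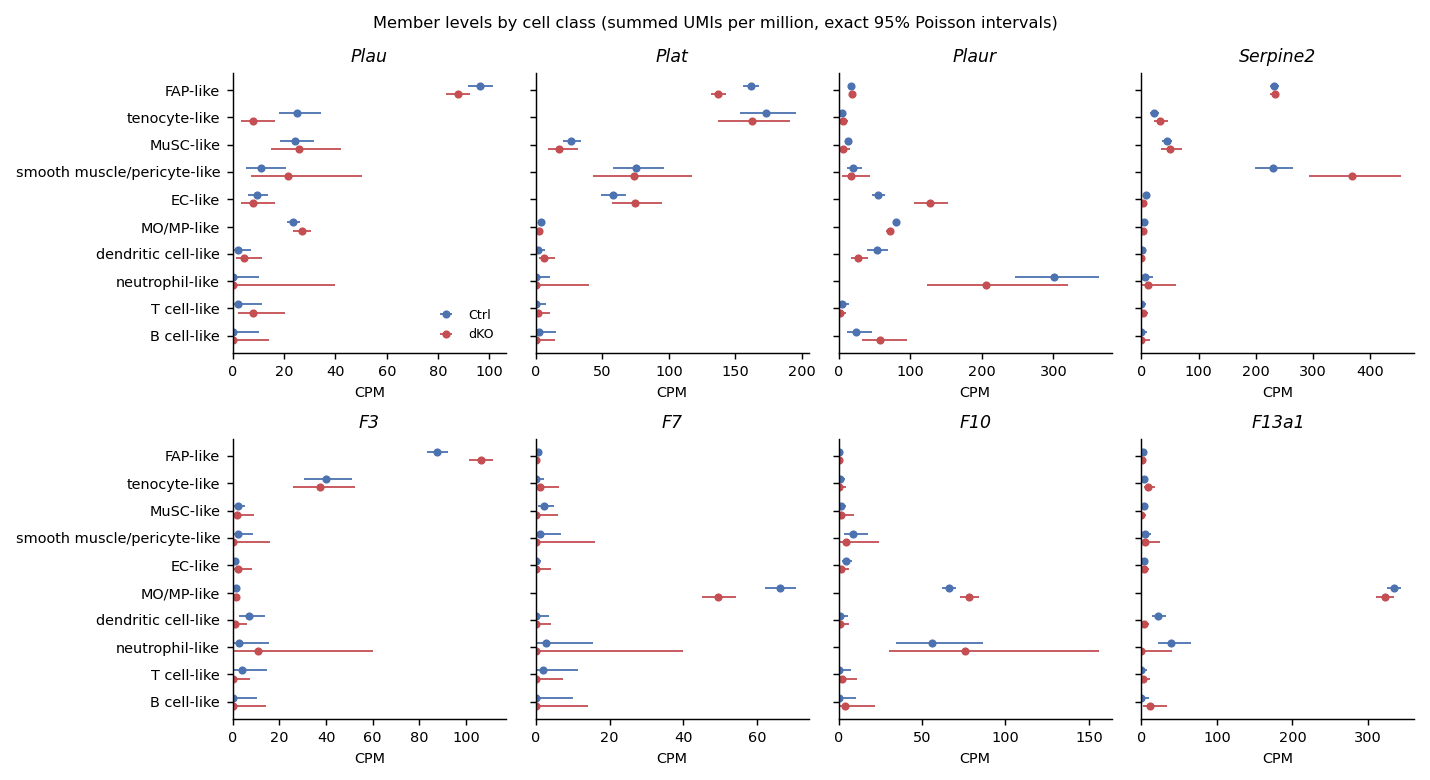
Level of each of the 8 genes (horizontal axis, CPM from summed UMIs, a separate linear scale per gene) in 10 named cell classes of the Ctrl (blue) and dKO (red) libraries. Points are 1 pooled library each and bars are exact 95% Poisson intervals. Plau and F3 were highest in FAP-like cells, Plat in FAP-like and tenocyte-like cells, and Serpine2 in FAP-like and smooth muscle/pericyte-like cells. F7 and F13a1 were highest in MO/MP-like cells, F10 in MO/MP-like and neutrophil-like cells, and Plaur in neutrophil-like, MO/MP-like and EC-like cells.

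In both libraries, FAP-like cells held most of the UMIs of 4 genes and MO/MP-like cells most of those of the other 4. FAP-like cells held 76.2% of all Plau UMIs in Ctrl and 83.3% in dKO, 81.0% and 89.1% of Plat, 89.0% and 95.3% of Serpine2, and 92.3% and 95.6% of F3. MO/MP-like cells held 98.4% and 99.8% of F7, 95.3% and 97.3% of F10, 98.2% and 98.6% of F13a1, and 64.9% and 56.7% of Plaur. FAP-like cells were 28.3% of Ctrl and 38.6% of dKO cells, and MO/MP-like cells 37.9% and 37.8%. These are shares of cells, whereas the shares of a gene are of UMIs. Of the 40795802 UMIs kept in Ctrl, 16053908 came from the FAP class and 14927360 from the MO/MP class. Of the 30397805 kept in dKO, 16661301 and 9224717 did. The part of these totals in the shares of each gene was not tested.

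Levels over all cells differed from those within a class. Over all cells F3 stood at 37.4 CPM in Ctrl and 61.0 CPM in dKO, a ratio of 1.63, against 1.21 within FAP-like cells. Serpine2 stood at 103 and 134 CPM over all cells, a ratio of 1.30, against 1.00 within FAP-like cells. Plat was above Ctrl over all cells, at a ratio of 1.07, and below it within FAP-like cells, at 0.847. All further comparisons were therefore made within cell classes.

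Plau, the urokinase gene, was read mainly from FAP-like cells. It stood there at 96.4 CPM in Ctrl (interval 91.6 to 101, 1547 UMIs) and 87.6 CPM in dKO (83.2 to 92.2, 1460 UMIs), a ratio of 0.909 (0.846 to 0.977). No other class came near this level. The next in order in Ctrl were tenocyte-like cells at 25.1 CPM, MuSC-like cells at 24.2 CPM and MO/MP-like cells at 23.4 CPM, whose intervals overlapped. MO/MP-like cells had 26.9 CPM in dKO, a ratio of 1.15 (0.970 to 1.35). Tenocyte-like cells had 7.90 CPM in dKO, but on 7 UMIs against 39, of which 12 came from 1 Ctrl cell.

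Plat, the gene of tissue plasminogen activator, was shared by FAP-like and tenocyte-like cells. FAP-like cells had 162 CPM in Ctrl (155 to 168, 2594 UMIs) and 137 CPM in dKO (131 to 143, 2280 UMIs), a ratio of 0.847 (0.8002 to 0.896). Tenocyte-like cells had 173 CPM (153 to 195) and 162 CPM (137 to 191), a ratio of 0.938 (0.761 to 1.15). The 2 classes thus could not be ordered in either library. Smooth muscle/pericyte-like cells, at 75.4 and 73.4 CPM, and EC-like cells, at 57.8 and 74.6 CPM, came next and could not be ordered either. EC-like cells, the textbook source of tissue plasminogen activator in vessels, had a ratio of 1.29 (0.951 to 1.74). Their clusters, named by a leading gene, did not share a direction. The Selp cluster had 64.5 CPM in Ctrl and 20.4 CPM in dKO, a ratio of 0.317 (0.121 to 0.700), but 25 of its 52 Ctrl UMIs lay in 1 cell. The Gpihbp1 and Cytl1 clusters had ratios of 1.49 (0.851 to 2.51) and 1.54 (0.966 to 2.43).

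Serpine2 stood at 232 CPM in FAP-like cells of both libraries, with 3723 UMIs in Ctrl and 3873 in dKO, a ratio of 1.00 (0.958 to 1.05). Smooth muscle/pericyte-like cells had 230 CPM in Ctrl (198 to 265, 189 UMIs in 107 cells) and 367 CPM in dKO (293 to 454, 85 UMIs in 38 cells), a ratio of 1.597 (1.22 to 2.07). Their Ctrl level overlapped that of FAP-like cells, and their dKO level lay above it. With each cell thinned to 2000 UMIs, 39.4% of their Ctrl cells (39 of 99) and 51.6% of their dKO cells (16 of 31) held Serpine2. The difference was 12.2 percentage points, with an interval that included 0 (-7.23 to 31.0). The markers of this mixed class moved as well, with the smooth muscle list at 22892 and 29138 CPM, the pericyte list at 12208 and 6316 CPM the EC list at 2969 and 1620 CPM and the MuSC list at 417 and 842 CPM, and their part in the ratio was not tested. Of the 1811 genes with 100 UMIs in this class, 7.40% were 1.5-fold higher in dKO. Lymphatic EC-like cells had 171 CPM on 18 UMIs in 18 cells and 234 CPM on 15 UMIs in 13 cells, which overlapped the level of FAP-like cells in both libraries. MuSC-like cells had 44.1 and 50.1 CPM.

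F3, the tissue factor gene, stood at 87.6 CPM in Ctrl FAP-like cells (83.1 to 92.3, 1407 UMIs) and 106 CPM in dKO FAP-like cells (102 to 111, 1773 UMIs), a ratio of 1.21 (1.13 to 1.30). Tenocyte-like cells came next, at 39.9 CPM and 37.2 CPM. In EC-like and MO/MP-like cells it stood below 3 CPM in both libraries.

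Plau, Plat, Serpine2 and F3 were also compared by the share of FAP-like cells that held a UMI, after thinning each cell to 2000 UMIs. The share for Plau was 16.99% in Ctrl and 14.3% in dKO, with a difference of -2.70 percentage points (-5.74 to 0.34). It was 24.2% and 21.4% for Plat (difference -2.82, from -6.33 to 0.68), 32.9% and 33.6% for Serpine2 (0.76, from -3.17 to 4.69) and 14.8% and 16.9% for F3 (2.01, from -1.05 to 5.06). All 4 intervals included 0. These shares used 1071 Ctrl and 1133 dKO cells, leaving out 64 and 54 shallower ones. The unthinned median depths were 12081 and 12080 UMIs in FAP-like cells, and 2317.5 and 2556 in B cell-like cells, in which these genes had at most 1 UMI. In thinned B cell-like cells, Serpine2, F3 and Plau had 0 of 97 Ctrl and 0 of 71 dKO cells with a UMI, which allows shares of up to 3.09% and 4.23%, and Plat had 1 of 97 (1.03%) and 0 of 71.

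**Figure D2:**
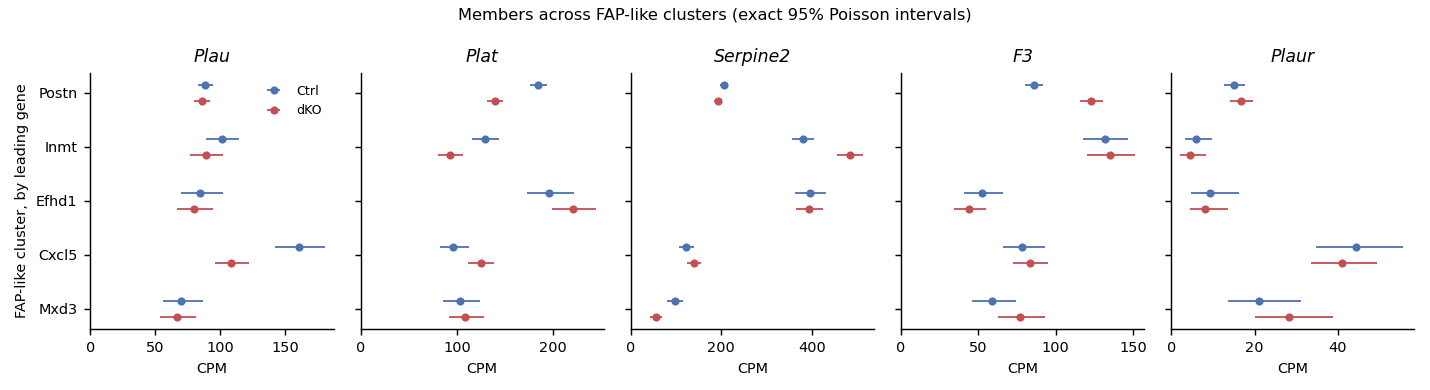
Level of the 5 members that reached 100 UMIs in the FAP class (horizontal axis, CPM, linear, own scale per gene) in 5 FAP-like clusters, each called by its leading gene, with Ctrl in blue and dKO in red. Bars are exact 95% Poisson intervals of 1 library each. Serpine2 was highest in the Inmt and Efhd1 clusters, and Plau and Plaur in the Cxcl5 cluster in Ctrl.

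Within FAP-like cells the levels of the 4 genes were compared over 5 clusters. The Postn cluster (543 Ctrl and 569 dKO cells, with Eln, Cilp and Col3a1), the Inmt cluster (338 and 293, with C7 and Gdf10), the Efhd1 cluster (137 and 158, with Pi16 and Dpp4), the Cxcl5 cluster (81 and 130, with Il1rl1 and Lif) and the cycling Mxd3 cluster (36 and 37) held these cells. Serpine2 stood at 380 and 484 CPM in the Inmt cluster and at 396 and 394 CPM in the Efhd1 cluster, against 206 and 192 CPM in the Postn cluster and 122 and 139 CPM in the Cxcl5 cluster. Plau stood at 161 CPM in the Cxcl5 cluster in Ctrl and 109 CPM in dKO, a ratio of 0.676 (0.570 to 0.802), and between 66.4 and 101 CPM in the other 4 clusters of both libraries. In dKO the interval of the Cxcl5 cluster overlapped that of the Inmt cluster.

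Plat stood highest in the Efhd1 cluster, at 196 and 221 CPM, followed in Ctrl by the Postn cluster at 184 CPM, and those 2 intervals overlapped in Ctrl. The Postn and Inmt clusters had lower Plat in dKO, with 139 CPM in the former (ratio 0.756, 0.702 to 0.814) and 129 against 92.8 CPM in the latter (ratio 0.718, 0.600 to 0.857). The Cxcl5 cluster had the opposite direction, with 96.5 and 125 CPM and a ratio of 1.29 (1.07 to 1.57). F3 stood higher in dKO in the Postn cluster, with 85.9 CPM in Ctrl and 123 CPM in dKO, a ratio of 1.43 (1.30 to 1.57), whereas the Inmt cluster, the highest in F3 in Ctrl, had 132 and 135 CPM (1.03, 0.875 to 1.20). The Efhd1 and Cxcl5 clusters had F3 ratios of 0.838 (0.595 to 1.18) and 1.06 (0.851 to 1.33). In the Efhd1 cluster a single Ctrl cell held 33 of the 67 UMIs. Once the top cell of each library was left out, the ratio was 1.44 (0.939 to 2.25). The cycling Mxd3 cluster had 58.9 and 76.8 CPM of F3 on 70 and 103 UMIs, a ratio of 1.30 (0.953 to 1.79).

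Among members with at least 100 UMIs in a FAP-like cluster, only Serpine2 in the cycling cluster passed 1.5-fold. It had 96.8 CPM in Ctrl (115 UMIs) and 55.2 CPM in dKO (74 UMIs), a ratio of 0.570 (0.420 to 0.770). Of the 3718 genes with 100 UMIs in that cluster, 5.49% were lower by as much. Over all FAP-like cells, 5 members had at least 100 UMIs, and 0 were 1.5-fold higher and 0 were 1.5-fold lower in dKO. The shares of all 10458 such genes were 2.68% higher and 2.76% lower. The median log2 ratio was 0.0034 over the 5 members and -0.054 over all genes.

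Plaur, the urokinase receptor gene, was found in neutrophil-like, MO/MP-like, EC-like, dendritic cell-like, B cell-like and FAP-like cells. Neutrophil-like cells had 300 CPM in Ctrl (246 to 363, 107 UMIs in 98 cells), the highest level, and 205 CPM in dKO (124 to 320, 19 UMIs in 36 cells), a ratio of 0.683 (0.396 to 1.12). The neutrophil list itself stood at 258157 and 149252 CPM there, and 93 of 98 Ctrl and 28 of 36 dKO cells had over 1% of their UMIs in it. In dKO their Plaur interval overlapped that of EC-like cells (105 to 153), so these classes could not be ordered. MO/MP-like cells had 79.8 CPM (75.3 to 84.4, 1191 UMIs) and 72.2 CPM (66.8 to 77.9, 666 UMIs), a ratio of 0.905 (0.822 to 0.996). FAP-like cells had 16.6 and 18.9 CPM, a ratio of 1.14 (0.963 to 1.34). Dendritic cell-like cells had 53.2 CPM on 55 UMIs and 27.4 CPM on 25 UMIs, a ratio of 0.515 (0.307 to 0.840). B cell-like cells had 24.9 CPM on 9 UMIs and 58.0 CPM on 15 UMIs, a ratio of 2.33 (0.957 to 6.05).

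EC-like cells were the class in which a member differed most between the libraries among those with at least 100 UMIs. Plaur stood there at 54.8 CPM in Ctrl (46.2 to 64.4, 146 UMIs in 85 cells) and 127 CPM in dKO (105 to 153, 111 UMIs in 49 cells), a ratio of 2.33 (1.80 to 2.998). In Ctrl the EC level lay below that of MO/MP-like cells, and in dKO above it. The cell with most Plaur held 5 UMIs in Ctrl and 6 in dKO, so the level did not rest on single cells. Thinned to 2000 UMIs, 7.79% of Ctrl cells (31 of 398) and 20.3% of dKO cells (29 of 143) held a Plaur UMI, a difference of 12.5 percentage points (5.96 to 20.2). Without thinning it was 18.3% of Ctrl and 27.4% of dKO cells, whose median depth was 4671 and 3802 UMIs, and 67 Ctrl and 36 dKO cells were too shallow for thinning. In T cell-like cells, which had little Plaur, the thinned shares were 1.02% in Ctrl and, in dKO, 0 of 115 cells, which allows up to 2.61%. In B cell-like cells they were 5.15% (5 of 97) and 9.86% (7 of 71), with a difference of 4.70 percentage points (-3.38 to 14.3), and 5.63% and 14.9% unthinned (9.31, from 1.44 to 18.7).

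All 3 EC-like clusters had the higher level in dKO. The Gpihbp1 cluster, with the capillary genes Car4 and Rbp7, had 39.9 CPM on 62 UMIs in Ctrl and 122 CPM on 43 UMIs in dKO, a ratio of 3.05 (2.02 to 4.58). The Selp cluster, with the venous genes Sele and Ackr1, had 69.5 CPM on 56 UMIs and 131 CPM on 45 UMIs, a ratio of 1.89 (1.25 to 2.85). The Cytl1 cluster, with the arterial genes Gja5 and Bmx, had 91.6 CPM on 28 UMIs and 131 CPM on 23 UMIs, a ratio of 1.43 (0.786 to 2.57). In Ctrl the interval of the Gpihbp1 cluster lay below those of the other 2 clusters, and in dKO all 3 intervals overlapped. Of the genes with 100 UMIs, 4.39% were 1.5-fold higher in dKO in the Gpihbp1 cluster and 5.51% in the Selp cluster.

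Of the 2 members with at least 100 UMIs in EC-like cells, 1 was 1.5-fold higher, Plaur, and 0 were lower. Among all 4736 such genes, 4.60% were higher and 7.33% lower by as much. Other cells' markers did not move with Plaur in 1 direction. The 12 MO/MP markers summed to 128 CPM in Ctrl and 103 CPM in dKO EC-like cells, with 3 of 12 higher in dKO, and the 11 neutrophil markers to 58.1 and 39.0 CPM, with 2 of 11 higher and Cxcr2 and Ly6g at 0. The 10 FAP markers summed to 1622 and 2119 CPM, a ratio of 1.31 (1.24 to 1.38), with 3 of 10 higher. The pericyte list stood at 558 and 276.5 CPM, the erythroid list at 101 and 37.9 CPM and the myocyte list at 67.5 and 13.8 CPM. Among those higher in dKO were the lymphatic EC list, at 43.1 and 57.4 CPM, and the tenocyte list, at 36.0 and 57.4 CPM. The 13 immediate early and stress genes summed to 26276 and 24460 CPM, with 5 of 13 higher. The Gpihbp1 cluster held 58.3% of Ctrl and 40.5% of dKO EC UMIs, and with the clusters weighted as in Ctrl the log2 ratio was 1.22 pooled and 1.20 weighted. The part of these markers, of depth and of cell numbers was not tested.

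**Figure D3:**
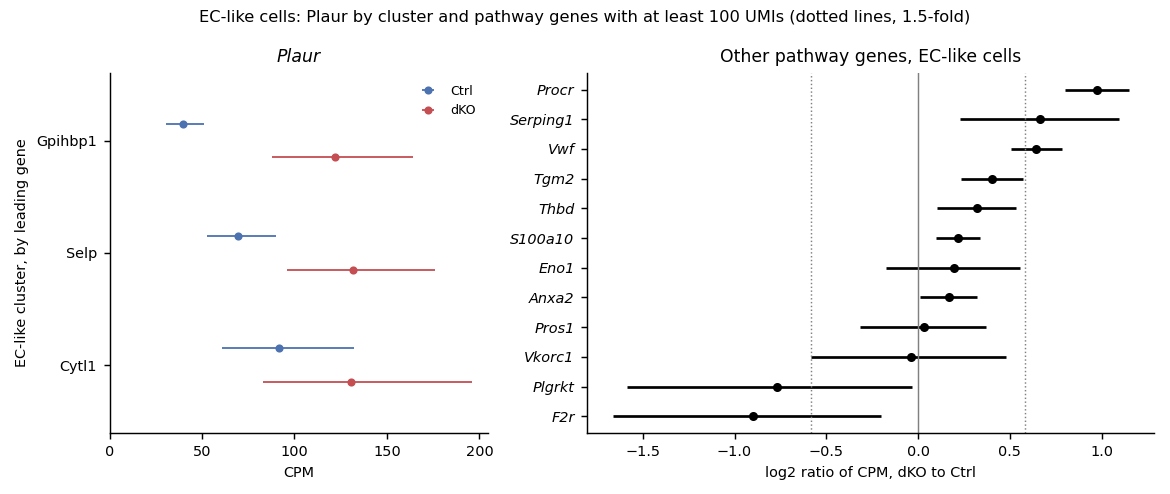
Left, Plaur level (CPM, linear axis) in 3 EC-like clusters of the Ctrl (blue) and dKO (red) libraries, with exact 95% Poisson intervals. Right, log2 ratio of CPM, dKO to Ctrl, of 12 of the 13 other pathway genes with at least 100 UMIs in EC-like cells, with exact counting intervals and dotted lines at 1.5-fold. Plaur was higher in dKO in each cluster, and Procr was the highest of the other genes shown at a ratio of 1.96.

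In MO/MP-like cells, F7, F10 and F13a1 had levels far above those of other classes, except for F10 in neutrophil-like cells. F7 stood at 66.2 CPM in Ctrl (62.1 to 70.4, 988 UMIs) and 49.5 CPM in dKO (45.1 to 54.3, 457 UMIs), a ratio of 0.748 (0.668 to 0.837). FAP-like cells had 8 F7 UMIs in Ctrl and 0 in dKO, which allows up to 0.180 CPM, and EC-like cells 0 in both. F10 stood at 65.9 CPM (61.9 to 70.2, 984 UMIs) and 78.2 CPM (72.6 to 84.1, 721 UMIs), a ratio of 1.19 (1.08 to 1.31). Neutrophil-like cells had F10 levels of 56.1 CPM on 20 UMIs and 75.6 CPM on 7 UMIs, which overlapped those of MO/MP-like cells. F13a1 stood at 335 CPM (326 to 344, 5000 UMIs) and 323 CPM (311 to 335, 2977 UMIs), a ratio of 0.963 (0.920 to 1.01). Over the whole class, the neighbouring genes F7 and F10 thus lay on opposite sides of 1. By cluster, described below, both lay below 1 in the Dcstamp cluster (0.876 and 0.890) and the Apoe cluster (0.349 and 0.692). Both lay above 1 in the Slpi cluster (1.38 and 1.22). They lay on opposite sides in the Spp1 cluster (0.586 and 1.01) and the Hist1h1b cluster (1.21 and 0.914).

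The same genes were compared by the thinned share of MO/MP-like cells with a UMI. For F7 it was 5.89% in Ctrl and 6.48% in dKO (difference 0.59 percentage points, from -1.32 to 2.59), 9.81% and 10.1% for F10 (0.28, from -2.09 to 2.74), 34.4% and 31.0% for F13a1 (-3.400, from -7.13 to 0.38) and 12.4% and 10.5% for Plaur (-1.95, from -4.47 to 0.63). The thinning used 1376 Ctrl and 1050 dKO MO/MP-like cells and left out 143 and 115. Unthinned depths differed, with medians of 8191 and 6951 UMIs. In thinned B cell-like cells, F7 had 0 of 97 and 0 of 71 cells with a UMI, F10 0 of 97 and 1 of 71, and F13a1 0 of 97 and 2 of 71.

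**Figure D4:**
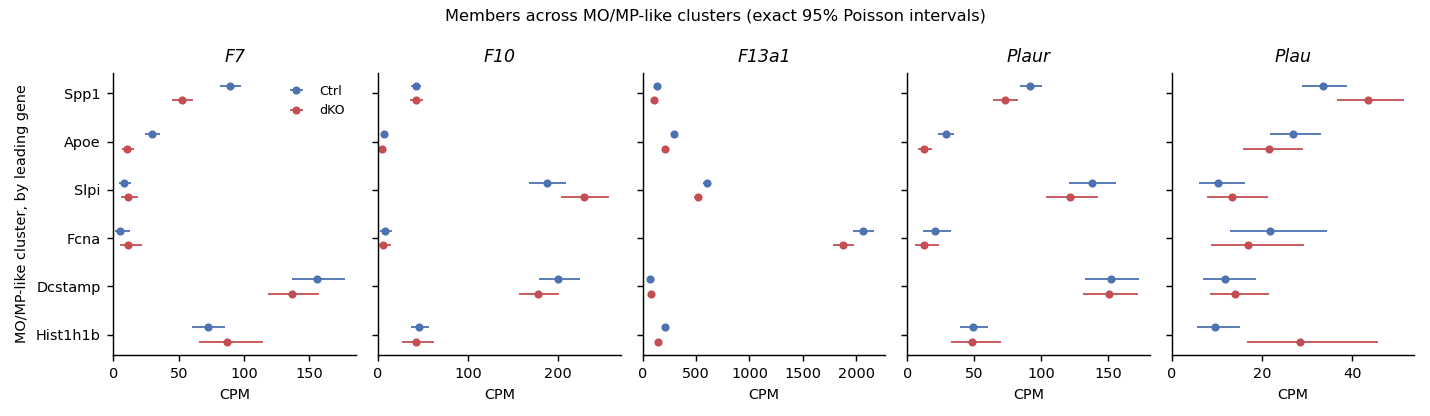
Level of 5 genes (horizontal axis, CPM, linear, own scale per gene) in 6 MO/MP-like clusters, each called by its leading gene, with Ctrl in blue and dKO in red; bars are exact 95% Poisson intervals of 1 library each. F13a1 was highest in the Fcna cluster, F7 in the Dcstamp cluster, and F10 in the Dcstamp and Slpi clusters.

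Among MO/MP-like clusters F13a1 stood highest in the Fcna cluster, and F7 and F10 both stood high in the Dcstamp cluster. F13a1 stood at 2065 CPM in Ctrl and 1879 CPM in dKO in the Fcna cluster (227 and 173 cells, with Cd163, Lyve1 and Cbr2), at 604 and 517 CPM in the Slpi cluster (251 and 197 cells, with the monocyte genes Chil3 and Ly6c2), at 293 and 211 CPM in the Apoe cluster (359 and 260 cells, with C1qa and Fcgr4), at 134 and 110 CPM in the Spp1 cluster (462 and 369 cells, with Gpnmb and Trem2) at 205 and 148 CPM in the cycling Hist1h1b cluster (106 and 36 cells) and at 73.6 and 75.2 CPM in the Dcstamp cluster (114 and 130 cells, with Ear2 and Retnla). The order of the 5 clusters other than the cycling one was the same in both libraries, with no overlap of neighbouring intervals. F13a1 was lower in dKO in the Apoe cluster (ratio 0.721, 0.642 to 0.808), the Spp1 cluster (0.819, 0.719 to 0.932), the Slpi cluster (0.857, 0.776 to 0.945) the Hist1h1b cluster (0.718, 0.563 to 0.908, but 0.549 without the cell with most UMIs in each library, which held 27 of the 88 in dKO) and the Fcna cluster (0.910, 0.846 to 0.978), but not in the Dcstamp cluster (1.02, 0.777 to 1.34). The Fcna cluster, which had the most F13a1, contributed 5.53% of MO/MP UMIs in Ctrl and 7.75% in dKO. With clusters weighted as in Ctrl the log2 ratio of F13a1 over all MO/MP-like cells was -0.26 in place of -0.054.

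F10 stood at 188 and 229 CPM in the Slpi cluster and at 200 and 178 CPM in the Dcstamp cluster, against 41.8 and 42.3 CPM in the Spp1 cluster, 45.9 and 41.9 CPM in the Hist1h1b cluster (where 1 dKO cell held 17 of 25 UMIs, and 34.8 and 14.5 CPM with the top cell of each library left out), 7.10 and 4.92 CPM in the Apoe cluster and 7.27 and 5.59 CPM in the Fcna cluster. Its ratio was 1.22 (1.04 to 1.43) in the Slpi cluster, 0.890 (0.750 to 1.05) in the Dcstamp cluster and 1.01 (0.811 to 1.25) in the Spp1 cluster. The Dcstamp cluster held 10.2% of Ctrl and 15.6% of dKO MO/MP UMIs. With the clusters weighted as in Ctrl, the log2 ratio of F10 over all MO/MP-like cells was 0.037 in place of 0.25.

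F7 stood at only 7.97 and 10.99 CPM in the Slpi cluster, on 14 UMIs each. It stood at 156 and 137 CPM in the Dcstamp cluster (ratio 0.876, 0.722 to 1.06), at 89.4 and 52.4 CPM in the Spp1 cluster (498 and 166 UMIs, ratio 0.586, 0.488 to 0.699) and at 29.6 and 10.3 CPM in the Apoe cluster (100 and 21 UMIs, ratio 0.349, 0.207 to 0.563). In the Spp1 cluster 134 of 462 Ctrl and 76 of 369 dKO cells held an F7 UMI, at median depths of 10913 and 7553 UMIs. When each cell counted equally, by the mean of the cells' own CPM, the log2 ratio there was -0.35 in place of -0.77. The cycling Hist1h1b cluster had 72.01 CPM in Ctrl and 87.2 CPM in dKO, and 51 of its 135 Ctrl F7 UMIs lay in 1 cell.

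Plaur followed the Dcstamp and Slpi clusters, with 152 and 150 CPM in the former and 138 and 122 CPM in the latter. It stood at 92.0 and 72.9 CPM in the Spp1 cluster (ratio 0.793, 0.676 to 0.928) and at 28.7 and 12.8 CPM in the Apoe cluster (97 and 26 UMIs, ratio 0.445, 0.277 to 0.693). Plau, at a lower level, stood highest in the Spp1 cluster, at 33.6 and 43.5 CPM. Its interval there overlapped those of the Apoe and Fcna clusters in Ctrl and that of the Hist1h1b cluster in dKO. Members with at least 100 UMIs that were 1.5-fold lower in dKO were F7 in the Spp1 cluster, where 3.40% of genes were lower by as much, and F7 and Plaur in the Apoe cluster, where 4.97% were. None of the members was 1.5-fold higher in a MO/MP-like cluster with at least 100 UMIs.

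Over all MO/MP-like cells, 5 members had at least 100 UMIs, of which 0 were 1.5-fold higher and 0 lower in dKO. The shares among 9109 genes were 4.39% higher and 4.61% lower. The median log2 ratio was -0.054 over the 5 members and -0.020 over all genes. Immediate early and stress genes summed to 8621 CPM in Ctrl and 11368 CPM in dKO MO/MP-like cells, with 13 of 13 higher in dKO. The FAP list summed to 515 and 687 CPM (1 of 10 higher) and the EC list to 46.5 and 27.1 CPM (0 of 10). The T cell list summed to 199 and 232 CPM (7 of 8 higher) and the dendritic cell list to 196 and 289 CPM. In the Spp1 cluster, the FAP list stood at 463 and 596 CPM (4 of 10 higher) and the neutrophil list at 114 and 67.8 CPM (1 of 11). The immediate early and stress genes stood there at 6565 and 8696 CPM (13 of 13 higher) and the EC list at 36.5 and 24.9 CPM (1 of 10). The part of these lists in the ratios was not tested. Neutrophil markers made up more than 1% of UMIs in 12 Ctrl and 3 dKO MO/MP-like cells, 10 of the 12 in the cycling cluster, and summed to 3545 and 116 CPM over the class. Those 12 Ctrl cells held 0 of the F7, 14 of the F10, 27 of the F13a1 and 26 of the Plaur UMIs of the class, and the 3 dKO cells 0, 5, 36 and 1.

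**Figure D5:**
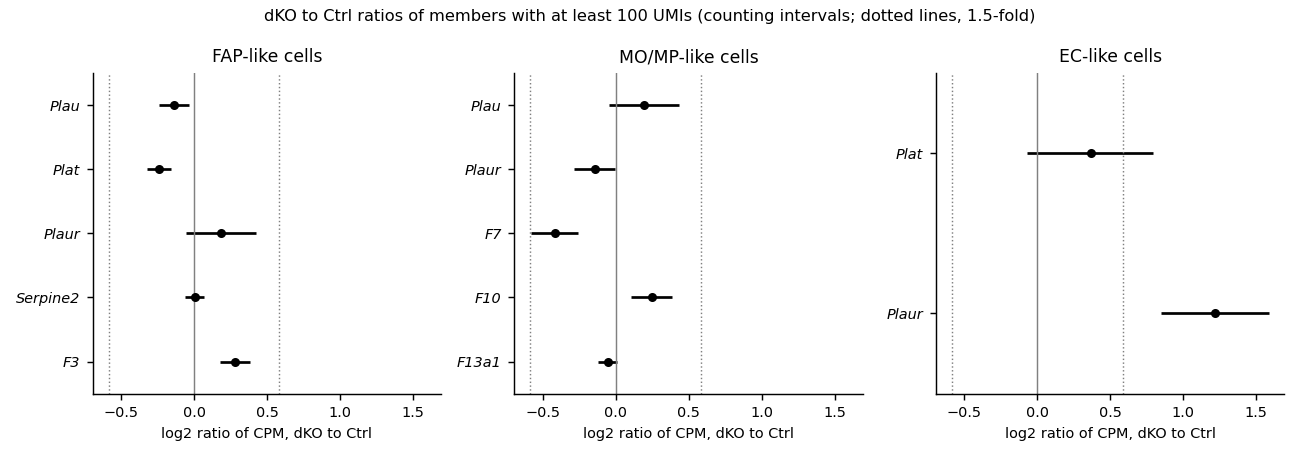
Log2 ratio of CPM, dKO to Ctrl (horizontal axis), of the members with at least 100 UMIs in FAP-like, MO/MP-like and EC-like cells. Bars are exact 95% counting intervals between 1 library per group, the solid line marks no difference and dotted lines mark 1.5-fold. Plaur in EC-like cells, at 1.22, lies beyond the dotted line.

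MuSC-like cells, the class in which Yy1 had few UMIs in dKO, were also few there. Their leading genes included Myog, Mymk, Mymx and Ttn, genes of differentiating muscle cells, and the myocyte list summed to 2609 CPM in Ctrl and 4460 CPM in dKO against 3071 and 3590 CPM for the MuSC list. The part of that difference in the ratios was not tested. MuSC-like cells had 56 Plau UMIs in Ctrl and 16 in dKO, 61 and 11 of Plat, 29 and 4 of Plaur and 102 and 31 of Serpine2. The ratios were 1.07 (0.572 to 1.89), 0.674 (0.320 to 1.29), 0.515 (0.132 to 1.47) and 1.14 (0.734 to 1.71). All 4 intervals included 1, so no difference was detectable at this depth.

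The other genes of the pathway, a list of 48, were counted in the same way. Of these, 8 had 0 UMIs in all cells, among them Fga and Fgb of fibrinogen and Proc (protein C), and 16 had fewer than 20. Plasminogen itself (Plg) had 3 UMIs in Ctrl and 1 in dKO, and prothrombin (F2) 7 and 0. The proteins on which the activators and factor X act thus had almost no RNA in these cells. Among the receptors and scaffolds of plasminogen on cells, Anxa2 stood at 878 and 844 CPM and S100a10 at 991 and 928 CPM in FAP-like cells. Others of that list were far lower there. Eno1 had 151 CPM in Ctrl and 176 CPM in dKO, and the plasminogen receptor gene Plgrkt 41.9 and 40.03 CPM. Itgam had 2.12 and 1.38 CPM, and Itgb2 1.37 and 1.38 CPM.

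In FAP-like cells 23 of the 48 genes had at least 100 UMIs, and 2 were 1.5-fold higher in dKO and 0 lower, where 2.68% of all genes were higher and 2.76% lower. Both were anticoagulants of the cell surface. Procr, the endothelial protein C receptor, stood at 115 CPM in Ctrl (1842 UMIs) and 217 CPM in dKO (3623 UMIs), a ratio of 1.90 (1.79 to 2.01). Thbd (thrombomodulin), which turns thrombin toward protein C, stood at 59.0 and 99.1 CPM, a ratio of 1.68 (1.55 to 1.82). Of 6 measured anticoagulants, the other 4 did not reach 1.5-fold. By the mean of each cell's own CPM, 0 of the 23 genes passed 1.5-fold, Procr and Thbd included. None of the 3 inhibitor genes measured, of 8 genes for plasminogen receptors and clearance, of 2 thrombin-type receptors and of 4 vitamin K cycle and transglutaminase genes reached 1.5-fold. The median log2 ratio was -0.033 over the 23 genes. Markers of other cells moved both ways in FAP-like cells. The dendritic cell list summed to 333 CPM in Ctrl and 591 CPM in dKO and the MuSC list to 21.7 and 29.1 CPM. Lower in dKO were the EC list at 22.5 and 8.82 CPM (0 of 10 genes higher), the neutrophil list at 53.7 and 27.8 CPM (3 of 11), the T cell list at 3.36 and 1.38 CPM (1 of 8) and the MO/MP list at 84.2 and 65.8 CPM (2 of 12). The immediate early and stress genes summed to 23502 and 21636 CPM, with 4 of 13 higher, and the part of these lists in the ratios was not tested.

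In MO/MP-like cells 20 of the 48 genes had at least 100 UMIs, with 0 higher and 0 lower by 1.5-fold and a median log2 ratio of -0.098. In EC-like cells 13 had, with 4 higher, 2 lower and 7 within 1.5-fold, where 4.60% of all genes were higher and 7.33% lower, and a median log2 ratio of 0.22, against -0.031 over all genes. Procr was again the highest, at 260 and 509 CPM (692 and 444 UMIs), a ratio of 1.96 (1.74 to 2.21). Serping1 (C1 inhibitor) had 50.6 and 80.3 CPM (ratio 1.59, 1.17 to 2.13). Vwf (von Willebrand factor, which tethers platelets) had 472 and 738 CPM (ratio 1.56, 1.42 to 1.72). Without the cell with most UMIs of the gene in each library, Serping1 no longer passed 1.5-fold, and neither did Vwf with no doublets removed. The lower genes rested on few dKO UMIs, namely F2r (thrombin receptor), with 114 and 20 UMIs and a ratio of 0.537 (0.316 to 0.868), and Plgrkt, a plasminogen receptor, with 94 and 18 UMIs and a ratio of 0.586 (0.333 to 0.977).

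The genes closest to each member were sought by Pearson's r of log2(CPM + 1) over 22 profiles, 11 named classes in 2 libraries, among genes with at least 500 UMIs. The profiles share libraries and cell classes, so r is a description only. F7 was closest to Folr2 (r = 0.921), Cela1 (0.912) and Mmp12 (0.901), F10 to C5ar1 (0.927), Slc11a1 (0.892) and Chil3 (0.889), and F13a1 to Lyz1 (0.935), Gdf3 (0.907) and Trem2 (0.832). Of these, Mmp12 and Lyz1 were among the 10 leading genes of the Dcstamp cluster, Chil3 of the Slpi cluster and Trem2 of the Spp1 cluster. The profiles are of whole classes, so r does not place a member in a cluster. F13a1 itself, close to Lyz1 and Trem2, stood lowest in the Dcstamp and Spp1 clusters, at 73.6 and 134 CPM in Ctrl. F3 was closest to Mmp3 (0.942), Ephb2 (0.903) and Mfap5 (0.894), Serpine2 to Arfip1 (0.936), Adamts5 (0.904) and Col4a5 (0.904), and Plat to Sgce (0.947), Selenom (0.944) and Fstl1 (0.941). Plaur was closest to Ehd1 (0.889), E030024N20Rik (0.853) and Plekho2 (0.831). Plau was closest to Gas8 (0.892), Gtpbp8 (0.888) and Tada2a (0.872), which had between 507 and 616 UMIs in all.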

How the data were processed

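The authors deposited UMI counts per gene and cell barcode, 1 unnormalized count matrix per library from 10x Chromium libraries. Per the labels, the reads were placed on mm10 by Cell Ranger 7.0.0. The file headers name version 3.0.2, a difference that could not be settled. The labels also name Seurat 4.3.0. The files held 4527 Ctrl and 3483 dKO barcodes with 45556596 and 33815155 UMIs, 7 barcodes were present in both, and 0 mitochondrial genes were listed, so no mitochondrial filter could act. Cells with at least 500 genes were kept, 4335 and 3329, and the stated alternative of 200 genes and 1000 UMIs left 4295 and 3306. Doublets were treated by Scrublet scores (scanpy 1.11.5). Its own threshold called only 4 and 14 cells and had not worked, so cells were ranked by score and the top 7.5% left out, 325 and 250.

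Counts were integrated with Seurat 5.3.0 anchors (R 4.3.3) on 2000 variable genes, less the members and pathway genes, with 40 dimensions and a resolution of 0.8. A cluster took the name of the marker list that held most of its 10 leading genes, and ties went to the list with more enriched markers (at least 3, at 2-fold). Where none of the leading genes was on such a list, and in cycling clusters, the name rested on the enriched markers alone. Cycling clusters were counted with their class, and macrophage state markers were taken as markers of MO/MP-like cells without entering that naming. Both were decided after the clusters were seen, and clusters were used in place of a second round of clustering. The 36 cells of 1 cluster stayed unnamed. UMIs were summed per class and library and divided by all UMIs of those cells (CPM). A gene was called past 1.5-fold if it had at least 100 UMIs over both libraries. The ratio has an exact conditional binomial interval, a share an exact binomial one, and a difference of shares a Newcombe interval. The limit of a count of 0 was set at 3 counts. The steps were tested on simulated counts. Named were the 8 members in classes with at least 20 UMIs, pathway genes past 1.5-fold (at most 5 each way per class) and the 3 genes most similar to each member. Plg, F2, Anxa2, S100a10, Eno1, Itgam and Itgb2, and Plgrkt in FAP-like cells, were added after values were seen. The values of 1 pathway gene, which enters the counts, are not reported here. The members and lists were chosen with earlier results of these data known.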

Additional observations from a re-analysis of the deposited data

Results flagged for a closer look

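Plaur differed in direction between cell classes, by intervals that cover counting error only. Its log2 ratio of dKO to Ctrl was 1.22 in EC-like cells, -0.14 in MO/MP-like cells and -0.96 in dendritic cell-like cells. The difference between these classes was not tested, since each class has 1 library per group.

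Serpine2 had a log2 ratio of 0.68 in smooth muscle/pericyte-like cells and of -0.87 in MO/MP-like cells. The latter rested on 71 Ctrl UMIs (4.76 CPM) and 24 dKO UMIs (2.60 CPM), whereas FAP-like cells had 232 CPM. This difference was not tested either.

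F3 stood out in the cluster left unnamed, which entered no comparison between classes but is part of the values over all cells. It had 159 CPM in Ctrl, on 18 UMIs in 24 cells, and 484 CPM in dKO, on 33 UMIs in 12 cells. Of the dKO UMIs, 22 came from 1 cell.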

How the results depend on the processing

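No paired analysis was possible because each group has 1 library. Of 97 recomputed log2 ratios, 92 stayed inside the counting interval of the reported value and none changed sign among those past 1.5-fold. With the mean of each cell's own CPM, F7 in MO/MP-like cells had a log2 ratio of -0.20, F7 in the Spp1 cluster -0.35 and F13a1 -0.34. With clusters weighted as in Ctrl, a setting chosen after seeing the data, F10 had 0.037 and F13a1 -0.26. Plaur in EC-like cells ranged from 0.88, with no doublets removed, to 1.25. With a minimum of 20 UMIs, 1 member passed 1.5-fold in FAP-like cells (F13a1), 1 in MO/MP-like cells (Serpine2) and 2 in EC-like cells, and 4, 1 and 11 pathway genes did. In FAP-like cells F13a1 had a ratio of 0.613 (0.337 to 1.09) on 33 and 21 UMIs. In MO/MP-like cells Serpine2 had 0.547 (0.329 to 0.880) on 71 and 24 UMIs. The 2 in EC-like cells were Plaur, higher in dKO, and Serpine2, with 0.266 (0.0304 to 1.08) on 23 and 2 UMIs. Shares over all genes are not given for this setting and those that follow, so the counts are not a result about the members. With no doublets removed, 1 member (Serpine2) and 2 pathway genes passed in MO/MP-like cells. Pathway genes past 1.5-fold in MO/MP-like cells numbered 1, Serpinb2, without the cell with most UMIs or without cycling cells. In FAP-like cells they numbered 0 by the mean of each cell's own CPM and 3 without the cell with most UMIs. In EC-like cells 4 passed in the last setting, and Serping1 was not among them.

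Of 45 cluster ratios, leaving out the cell with most UMIs of the gene in each library, a setting chosen after seeing the data, moved 2 by over 1.5 times (F3 in the Efhd1 cluster, from 0.838 to 1.44, and F10 in the Hist1h1b cluster, from 0.914 to 0.415) and brought the latter and F13a1 in the Hist1h1b cluster (0.549) past 1.5-fold. Ratios that crossed 1 numbered 4, F3 in the Efhd1 and Cxcl5 clusters, F10 in the Spp1 cluster and Plaur in the Dcstamp cluster.

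With no doublets removed, FAP-like cells held 78.0% of Plau, 81.7% of Plat, 88.1% of Serpine2 and 92.6% of F3, and MO/MP-like cells 58.4% of Plaur, 96.9% of F7, 92.6% of F10 and 94.0% of F13a1. Clustering with all variable genes gave 83.4% for Plat. Unthinned, the difference in share of MO/MP-like cells with a UMI was -7.37 percentage points for Plaur, -3.45 for F7 and -9.21 for F13a1, at unequal depths. The cause of these shifts was not tested.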
